A study of Mus musculus with 6 samples.

Results

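Complement components and regulators were examined in RNA lysed from the inner surface of the mouse femur and in RNA of the flushed marrow. The members were 9 genes picked by symbol: the C1q chains C1qa, C1qb and C1qc, the thioester proteins C3 and C4b, the alternative pathway proteins Cfb and Cfp, the inhibitor Serping1 and the receptor C3ar1. All probe sets annotated to these symbols were taken, which gave 13 of 45037 probe sets other than array controls. Of these, 12 named 1 member alone and covered 7 member genes out of 18193 genes measured. C4b was represented only by 1 probe set annotated to both C4a and C4b, and C3 was not analysed here because the annotation used lists no probe set under that symbol.

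The 6 arrays came from femurs of 3 male C57BL/6 mice, aged 8 weeks, with 3 arrays of central marrow and 3 of the endosteal fraction. All mice had received intraperitoneal saline and no other agent or allele is named. After muscle and periosteum were scraped and rubbed off and the metaphyses cut away, flushing the shaft with buffered saline gave the central cells, which were pelleted before lysis in Trizol, a phenol-based RNA reagent. Trizol passed through the emptied shaft then gave the endosteal RNA, so that this fraction is defined by what stayed on the bone and not by a cell sort. Arrays carry the letters A, B and C in both regions, but whether a letter marks 1 mouse is not stated, and p-values below measure the spread between these arrays.

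Complement is a cascade of plasma and cell surface proteins that tags microbes, debris and dying cells. The classical pathway starts when C1q, built from A, B and C chains, binds a target and activates the attached proteases C1r and C1s, which cleave C4 and C2, while the alternative pathway amplifies C3 cleavage through factor B and is stabilised by properdin. The liver makes most circulating complement proteins, but tissue macrophages are the main source of C1q and stromal cells and myeloid cells also express several components. The C1 inhibitor blocks C1r and C1s, and C3ar1 is the receptor for the C3a fragment.

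RNA for the chains that start the classical pathway and for its inhibitor was higher in the endosteal fraction, whereas the alternative pathway members and the C3a receptor did not pass the test. Signals of C1qa, C1qb and C1qc rose 2.95-fold, 3.29-fold and 2.57-fold, and that of Serping1 rose 7.18-fold. The probe set shared by C4a and C4b rose 3.06-fold. Of the 7 member genes, 4 were called higher and 0 lower by limma at a Benjamini-Hochberg adjusted p of 0.05 over 18193 genes, and 4 and 0 had an unadjusted p under 0.05. Among all genes, 7.92% were called higher and 4.02% lower. The median log2 change was 1.36 over the 7 member genes and 0.10 over all genes. With the array letter as a fixed block, 0 of the 7 member genes and 0 of the 13 member probe sets were called. All 4 genes called higher kept an unadjusted p under 0.05 in that fit. At the level of probe sets, 7 of 13 were called higher and 0 lower (9 and 0 at an unadjusted p under 0.05), against 3.21% and 1.29% of 45037 probe sets. All signals are linear intensities as deposited, all log2 changes and fold values are on the scale of log2(signal + 16), endosteal minus central, and all errors of means are SDs over 3 arrays. In whole-tissue RNA, more cells of a type and more RNA per cell cannot be told apart.

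**Figure D1:**
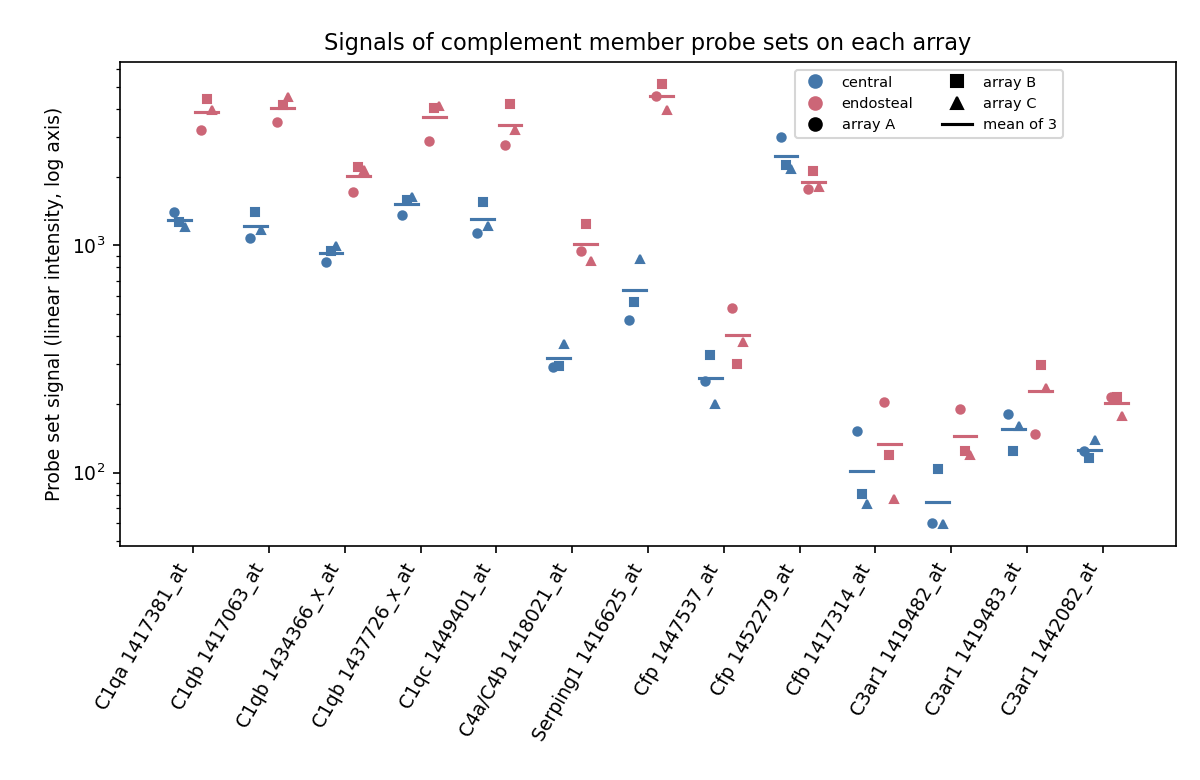
Signal of each of the 13 member probe sets on each array, on a log axis, with blue for central and red for endosteal arrays, a symbol for each array letter and a line at the mean of 3 arrays. The 5 C1q probe sets, the C4a/C4b probe set and Serping1 lie higher on every endosteal array than on any central array. So do 2 of the 3 C3ar1 probe sets, while the Cfp probe sets move in opposite directions. This order held for 22.3% of all genes, and its share over all probe sets was not counted. Levels of different probe sets cannot be set against each other.

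The genes C1qa, C1qb and C1qc lie next to each other on chromosome 4, with 0 other genes annotated between them in RefSeq. Of the 9 members, 5 have an entry in the RefSeq promoter table of GRCm38.p6 used here, among them C1qb and C1qc. The 250 bases before their start sites are shown because these neighbouring genes rose together, each read 5′ to 3′ on the gene's minus strand (C1qb at chr4:136886201-136886450 and C1qc at chr4:136892915-136893164), with capitals marking a match to a searched motif.
C1qb: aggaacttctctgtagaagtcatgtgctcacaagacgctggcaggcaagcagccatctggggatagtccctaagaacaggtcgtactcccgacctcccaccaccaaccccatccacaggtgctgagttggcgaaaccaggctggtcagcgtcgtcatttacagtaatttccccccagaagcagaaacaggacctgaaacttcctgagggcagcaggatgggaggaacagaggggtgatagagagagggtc
C1qc: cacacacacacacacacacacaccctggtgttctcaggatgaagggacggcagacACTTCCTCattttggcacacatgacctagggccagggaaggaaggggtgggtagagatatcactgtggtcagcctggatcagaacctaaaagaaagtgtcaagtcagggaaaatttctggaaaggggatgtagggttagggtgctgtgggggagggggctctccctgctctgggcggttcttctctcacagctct
The motifs searched on both strands were GAGGAAGT, a form of the site of the myeloid factor PU.1, TTCNNNGAA, the spacing bound by STAT factors, GAAANNGAA, a core of interferon-responsive elements, and TGCTGAC, a short site of Maf factors. C1qc held 1 match, to GAGGAAGT on the opposite strand, from 195 to 188 bases before the start site, and 2.44% of 32851 windows of the same length in the table hold that motif. The other 3 motifs occur in 7.02%, 7.13% and 3.81% of windows, in the order given. None of these letter patterns occurs in the windows of C1qb, C3, C3ar1 or Cfp, so that C1qb and C1qc shared no exact match. Looser forms of the 4 motifs were not searched. The C1qb window does hold acttcct, the C1qc match without its last base, and the share of windows with that shorter string was not counted.

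C1qa encodes the A chain of C1q. In central RNA its signal was 1408 on array A, 1268 on B and 1199 on C, and in endosteal RNA it was 3223 on A, 4416 on B and 3949 on C, an order kept for all genes below. The means were 1292 ± 107 and 3863 ± 601. Every endosteal array lay above every central array, which held for 22.3% of all genes. The log2 change was 1.56 (SE 0.16, limma adjusted p = 0.00747).

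C1qb, the B chain, was read by 3 probe sets. The brightest of them, which represents the gene, read 1076, 1404 and 1169 on the central arrays against 3488, 4138 and 4488 on the endosteal ones (log2 change 1.72, SE 0.17, limma adjusted p = 0.00641). Both other probe sets, whose names mark possible cross-hybridisation, went from 927 ± 73.7 to 2022 ± 267 and from 1524 ± 146 to 3665 ± 692. Their log2 changes of 1.11 and 1.24 were smaller, and both passed in the fit over probe sets (limma adjusted p = 0.0301 and 0.0335). The 3 probe sets thus moved the same way with different sizes, and their mean changed by 1.36.

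C1qc, the C chain, read 1138, 1550 and 1213 on the central arrays against 2763, 4168 and 3213 on the endosteal ones. The regions did not overlap, array B was the highest of its region in both, and the log2 change was 1.36 (SE 0.21, limma adjusted p = 0.0187). In the gene fit, C1qc did not pass without central array A (limma adjusted p = 0.0676), central array C (0.0665) or endosteal array C (0.0506). C1qa and C1qb kept their gene fit calls without any 1 array. In the fit over probe sets, C1qa and the brightest C1qb probe set lost theirs without central A, B or C or endosteal B. Their limma adjusted p were then 0.051 to 0.0742 and 0.0502 to 0.0611. C1qc lost its call there whichever array was left out (limma adjusted p from 0.0601 to 0.118). Between chains, log2 changes differed by 0.16 for C1qa and C1qb, 0.20 for C1qa and C1qc and 0.36 for C1qb and C1qc. These differences were not tested, and the 3 profiles over the 6 arrays, each centred on its own mean, lay 0.19 to 0.23 apart on the log2 scale as a root mean square.

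Serping1 encodes the C1 inhibitor, a serpin that inactivates C1r and C1s and also controls kallikrein. Its signals were 470, 561 and 872 on the central arrays and 4548, 5110 and 3923 on the endosteal arrays, the largest change among the member genes. The lowest endosteal signal was thus several times the highest central one, and the log2 change was 2.84 (SE 0.26, limma adjusted p = 0.00519). Of 18193 genes, 155 (0.852%) had a larger increase. In the gene fit, the call held without any 1 array (limma adjusted p from 0.0106 to 0.0284). In the fit over probe sets, it ended without central array B (limma adjusted p = 0.057).

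The classical pathway protein C4, cleaved by C1s, is encoded by C4b, and C4a is its near-identical neighbour. The probe set that reads both gave 293, 296 and 369 centrally and 949, 1247 and 856 endosteally. All endosteal arrays were higher, by 1.61 on the log2 scale (SE 0.21, limma adjusted p = 0.0200 over probe sets). Which of the 2 genes gave this signal cannot be told apart. This probe set was called in 5 of 11 alternatives of the fit over probe sets. There, the probe set of C1qa and the brightest of C1qb were called in 6 each. That of C1qc was called in 3 and that of Serping1 in 9. In the fit over probe sets, the number of member probe sets called higher was 1 without central array A, 0 without central B, 1 without central C, 4 without endosteal A, 1 without endosteal B and 4 without endosteal C.

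Cfp encodes properdin, which stabilises the alternative pathway convertase and which neutrophils, monocytes and other leukocytes release. Its brighter probe set gave 2997, 2260 and 2161 centrally and 1777, 2117 and 1807 endosteally. The endosteal arrays were all lower, but the log2 difference of -0.37 (SE 0.18) did not pass (limma adjusted p = 0.239). The share of all genes that lie lower on every endosteal array was not counted. The dimmer probe set pointed the other way, with 254, 328 and 201 against 528, 301 and 376, where the regions overlapped (log2 difference 0.58, adjusted p = 0.290 over probe sets). When the arrays were scaled to the spiked poly-A controls, the brighter probe set gave 0.63 (adjusted p = 0.0221). That scaling shifts every gene alike, moving the median of all genes from 0.10 to 1.10, so that Cfp stays at -0.47 relative to the median by construction.

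Cfb encodes factor B, the protease of the alternative pathway convertase. Its signals were 153, 80.2 and 72.4 centrally and 205, 119 and 76.9 endosteally. The regions overlapped, with array A highest in each, and the log2 difference of 0.32 (SE 0.40) did not pass (limma adjusted p = 0.655).

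C3ar1 was read by 3 dim probe sets. The brightest gave 182, 124 and 160 centrally and 148, 298 and 236 endosteally, which overlapped (log2 difference 0.47, SE 0.28, limma adjusted p = 0.332). The other two had means of 74.4 ± 25.4 and 145 ± 39.6, and of 126 ± 11.4 and 203 ± 22.0, with no overlap between regions, log2 differences of 0.84 and 0.62 and adjusted p of 0.148 and 0.0948 over probe sets. Such a separation upward held for 22.3% of all genes, each read by its brightest probe set. Taken as the mean of its probe sets, C3ar1 passed (log2 change 0.64, SE 0.13, limma adjusted p = 0.0382). Its call thus depends on how the probe sets are combined.

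Of 46 other complement genes listed, 37 were measured. By limma, 5 were called higher and 1 lower (10 and 5 at an unadjusted p under 0.05), against 7.92% and 4.02% of all genes. The median log2 change of these 37 genes was 0.24. The count called higher was 3 without central array A, 2 without central B, 2 without endosteal B and 3 without endosteal C, and 0 were called lower without central A, central B, endosteal A or endosteal B. C1ra and C1s1, the proteases that C1q carries, both rose. C1ra went from 138, 168 and 164 to 508, 500 and 371 (log2 change 1.45, limma adjusted p = 0.0101) and C1s1 from 35.4, 85.0 and 85.0 to 492, 416 and 431 (2.52, adjusted p = 0.00990). Each has a close copy, C1rb and C1s2, that its probe set may also read. C2, the other substrate of C1s, has 3 probe sets. The brightest had signals of 26.3, 11.3 and 157 in central and 222, 432 and 198 in endosteal RNA. All endosteal arrays were higher, as for 22.3% of all genes. The log2 difference of 2.28 (SE 0.73) was larger than that of C1ra but did not pass (limma adjusted p = 0.105). Genes for each protein of the C1 complex were thus higher in endosteal RNA, together with that of its inhibitor.

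In the lectin pathway, 1 of 8 genes was called higher. Fcna, the ficolin A of macrophages, went from 1326 ± 193 to 3189 ± 971 (log2 change 1.21, limma adjusted p = 0.0480). Its call ended without central A, B or C or endosteal B or C (adjusted p from 0.106 to 0.141) and in the fit over probe sets (0.0766), and it was called in 7 of 16 alternatives. Fcnb, the ficolin of neutrophils and monocytes, had 6720 ± 1234 and 7811 ± 1501 and did not pass (adjusted p = 0.554).

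Of 6 genes of the terminal pathway, which forms the membrane pore, 1 was called higher and 1 lower, both from dim signals. C6 had 7.52, 21.5 and 61.6 in central and 119, 181 and 157 in endosteal RNA (log2 change 2.02, limma adjusted p = 0.0438). Hc, which encodes C5, had 61.0, 94.7 and 26.4 in central and 3.71, 2.49 and 3.29 in endosteal RNA (log2 change -1.89, limma adjusted p = 0.0293). The endosteal values of Hc lie at the bottom of the signal range, and the study's own measure, the log2 ratio of the mean signals, gave -4.26. The call of C6 ended without any of central A, central B, endosteal A, endosteal B or endosteal C (adjusted p from 0.0855 to 0.131), with pseudocount 1 (0.0853) and after quantile normalisation (0.0661), and that of Hc without central A or B or any endosteal array (0.0651 to 0.0968).

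Clu, which encodes clusterin, a chaperone that keeps the terminal complex off membranes, was the called gene among 6 fluid-phase regulators. It went from 1184, 1722 and 2130 to 4926, 5715 and 4934 (log2 change 1.66, limma adjusted p = 0.0156), and all 4 of its probe sets were called higher. The call ended without central array B (adjusted p = 0.0585) and without endosteal array B (0.0546). Of 6 membrane regulators, which protect host cells, 0 were called by limma in either direction (1 higher and 0 lower at an unadjusted p under 0.05). Cd55, the decay-accelerating factor, had 928 ± 44.9 and 925 ± 96.7, and Cr1l, which encodes Crry, 2369 ± 101 and 2614 ± 271. Of 8 complement receptor genes, 0 were called in either direction (1 higher and 4 lower at an unadjusted p under 0.05). Counts of 0 in lists this short lie near the shares of all genes called, 7.92% higher and 4.02% lower. Itgam and Itgb2, the chains of complement receptor 3, had log2 differences of -0.59 and -0.56 (limma adjusted p = 0.104 and 0.0596).

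**Figure D2:**
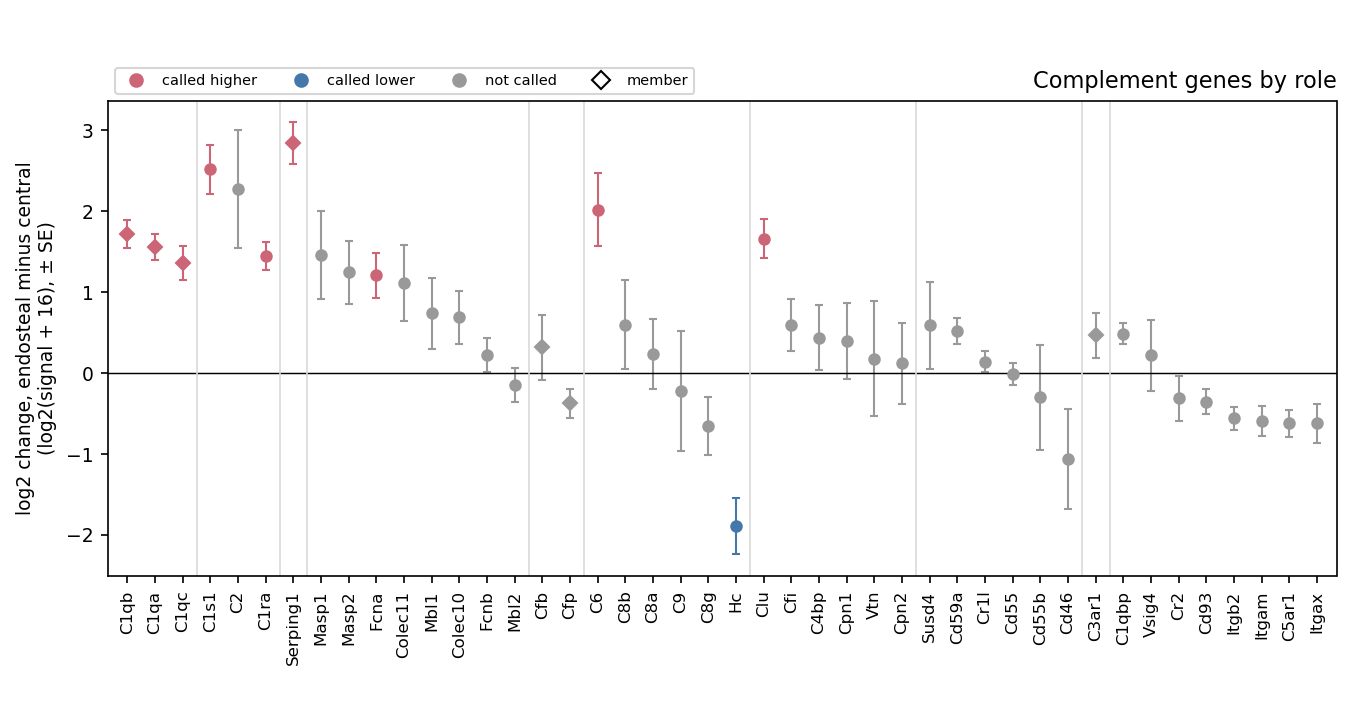
Log2 change from central to endosteal RNA of the 7 member genes (diamonds) and 37 other complement genes (circles), with bars of ± SE, in blocks by role from the C1q chains at the left to receptors at the right. Red marks the 9 genes called higher and blue the 1 called lower. The C1q chains, C1ra, C1s1 and Serping1 are all red, and 0 membrane regulators or receptors are coloured. Among all genes, 7.92% were called higher and 4.02% lower, and a count of 0 in lists this short lies near those shares.

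Markers of cells that make complement proteins moved on the same arrays. Of 16 measured macrophage markers, 5 were called higher and 0 lower by limma (10 and 0 at an unadjusted p under 0.05), and their summed signal was 18556 to 19483 on central and 26274 to 33288 on endosteal arrays. Lgmn, a lysosomal protease, rose by 1.51, the mannose receptor gene Mrc1 by 1.60 and the efferocytosis receptor genes Axl and Mertk by 1.23 and 1.16, and Spic, the factor of red pulp and marrow macrophages, by 0.90. The pan-macrophage genes Csf1r and Adgre1 had log2 differences of 0.37 and 0.05 and did not pass (adjusted p = 0.109 and 0.858), and Marco was near background in both regions (6.66 ± 4.19 and 10.3 ± 7.99). Macrophage markers as a list therefore held both genes that changed as much as C1q and genes that did not pass. Of 6 monocyte markers, 0 were called higher and 2 lower (0 and 5 at an unadjusted p under 0.05).

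Stromal markers were called higher in 9 of 9 cases, with a summed signal of 3529 to 5717 on central and 78998 to 98492 on endosteal arrays. Called higher were also 3 of 5 adipocyte, 4 of 6 endothelial, 4 of 5 osteoclast and 3 of 4 bone markers. Skeletal muscle markers, which the cleaning of the bone was meant to remove, were called higher in 7 of 7 cases, and their summed signal was 260 to 574 on central and 53304 to 105613 on endosteal arrays. Of 3 hepatocyte markers, 0 were called in either direction (0 and 0 at an unadjusted p under 0.05), and Alb was near background in both regions, at 23.9 ± 11.9 and 18.6 ± 11.8. Neutrophil genes went both ways, 4 of 12 higher and 2 lower, and 2 of 5 B lymphocyte and 1 of 3 mast cell markers were lower. Of 4 erythroid markers 0 were called (0 higher and 2 lower at an unadjusted p under 0.05). The part of these cell types in the changes of the complement members was not tested.

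The measured members other than Cfb were next set against a marker gene on the same array. This removes a shift in array scale for bright genes, but only in part for dim ones, because 16 is added to each signal. On this measure the C1q chains had higher values in endosteal RNA against both pan-macrophage genes, which the design cannot bring past the threshold. Neither of these reference genes was itself called in the gene fit. No pair was run against the 5 macrophage markers called higher, whose log2 changes were 0.90 to 1.60. Whether C1q rose by more than those markers was not tested. The difference between C1qa and Adgre1 was -0.07, -0.11 and -0.22 on the central arrays and 1.29, 1.35 and 1.49 on the endosteal arrays, a change of 1.51. For C1qb and C1qc against Adgre1 the changes were 1.67 and 1.31. Against Csf1r they were 1.19 for C1qa, 1.35 for C1qb and 0.99 for C1qc. In all 6 of these comparisons the regions did not overlap. The exact two-sided permutation test gave p = 0.10 for each, the smallest that 3 against 3 arrays allow (adjusted p = 0.16 over 11 pairs). No comparison of this size could thus pass 0.05. The share of all genes with no overlap on this measure was not counted. On their own signal, 22.3% of all genes had every endosteal array above every central array. The 6 comparisons reuse the same chains and reference genes and are not independent. With each gene taken as the mean of its probe sets, an alternative chosen after the data were seen, these 6 changes ran from 1.20 to 1.51, again with no overlap. C3ar1 changed by 0.10 against Csf1r (exact p = 0.90) and by 0.42 against Adgre1 (exact p = 0.30), with overlap, and by 0.48 and 0.59 with no overlap as means of probe sets (exact p = 0.10 for both).

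Values against the mesenchymal receptor gene Pdgfra, which has 3 probe sets, depended on how these were combined. Serping1 changed by -0.26 against its brightest probe set, with overlapping regions (exact permutation p = 0.70), and by 0.95 against their mean, with no overlap (exact permutation p = 0.10). The C4a/C4b probe set changed by -1.49 against the brightest, with no overlap (exact permutation p = 0.10), and by -0.28 against the mean, with overlap (exact permutation p = 0.30). Whether Serping1 or C4a/C4b rose by more or less than Pdgfra is therefore not settled here. Cfp changed by 0.22 against Itgam, the myeloid integrin gene, with overlap (exact permutation p = 0.20), and by 0.69 with no overlap as the mean of its 2 probe sets (exact permutation p = 0.10). With the brightest probe sets, the difference between Serping1 and Pdgfra was lowest on central array B, at 2.09, against 3.21 and 3.33 on the other central arrays.

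**Figure D3:**
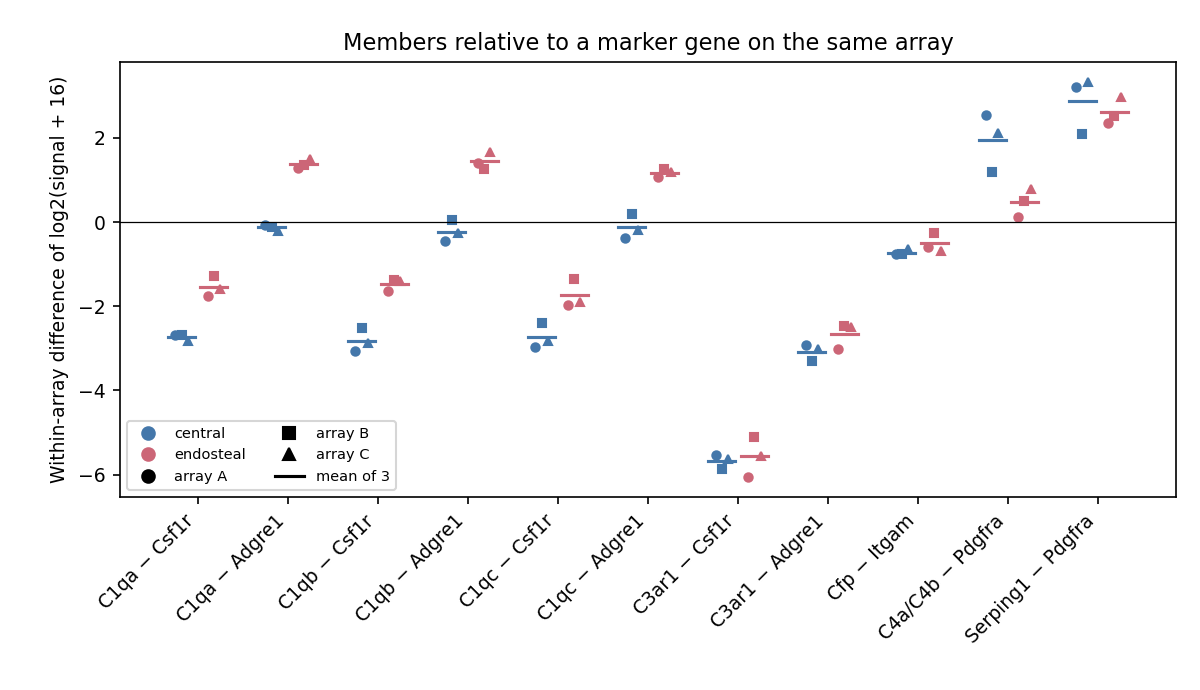
Difference of log2(signal + 16) between a member and a marker gene on the same array, for 11 pairs of genes each taken as its brightest probe set, with blue for central and red for endosteal arrays, a symbol for each array letter and a line at the mean of 3 arrays. All 6 C1q pairs are higher on the endosteal arrays with no overlap. The pair of C4a/C4b and Pdgfra is lower, and the pairs with C3ar1, Cfp and Serping1 overlap. The share of all genes with no overlap on this measure was not counted.

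The genes whose pattern over the 6 arrays lay nearest to each member were taken from 9091 genes outside the members with a mean signal above the median, by the root mean square difference after centring. Nearest to C1qa were Pdgfc, Slc5a3 and Cd302, at 0.12 to 0.14 on the log2 scale. Nearest to C1qb were Vcam1, an adhesion molecule of stroma and marrow macrophages, Fcgrt, the neonatal Fc receptor, and Gpihbp1, a lipase carrier of capillaries, at 0.11 to 0.13. C1qc was nearest to Axl, at 0.13, then to Epdr1 and Tgm2. Serping1 was nearest to Cxcl12, the chemokine of marrow stroma, at 0.12, to the elastic fibre gene Fbln5 at 0.14 and to Kitl, which encodes stem cell factor, at 0.15. Nearest to Cfp were Irgm2, Pilrb1 and Rnf130, at 0.03 to 0.05. With 6 arrays in 2 regions, genes of like change lie near each other whatever cell they come from.

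Of 16 alternatives of the gene fit, C1qa, C1qb and Serping1 were called higher in 15 each and C1qc in 12. With the letter as a fixed block, the 4 member genes called higher had limma adjusted p of 0.0507 for C1qb, 0.0517 for C1qc, 0.0549 for Serping1 and 0.0610 for C1qa, so that 0 passed, while all 4 kept an unadjusted p under 0.05. With the letter as a random block, all 4 passed.

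**Figure D4:**
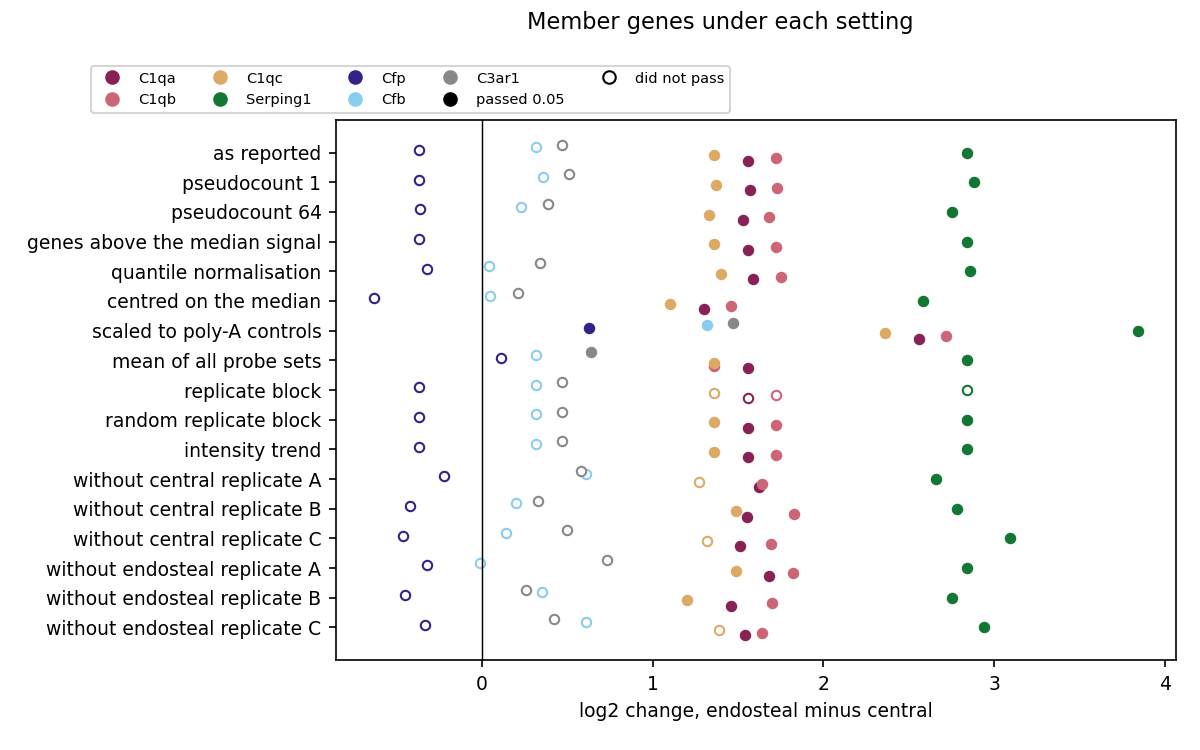
Log2 change of the 7 member genes (colours) under the reported setting and each of 16 alternatives (15 for Cfb and C3ar1, which are not among the genes above the median signal), with filled points where the limma adjusted p was under 0.05 and open points where it was not. The C1q chains and Serping1 stay above 1 everywhere and are open together under the fixed replicate block; Cfp lies below 0 except when scaled to poly-A controls or taken as the mean of its probe sets.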

How the data were processed

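RNA was measured on 6 Affymetrix arrays, 3 of central and 3 of endosteal femur RNA, each hybridised with biotin-labelled cRNA that a one-cycle kit made, per the labels' protocols, out of 2 micrograms of RNA. The authors' deposited values are a linear signal intensity per probe set. No source used here names the summary software or a genome build. With 2% of probe sets trimmed from either end, all 6 arrays had the same mean signal, so each appears to have been scaled by 1 factor. Median signals were 97.2 to 106.3 on central and 119.6 to 131.0 on endosteal arrays, and 15.9% to 20.1% of probe sets lay below 16, where signal holds little information on level.

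Of 45101 probe sets, 34945 named 1 gene, 932 several and 9160 were unnamed here, and 64 were controls. A gene was its brightest probe set by mean signal. Values were log2(signal + 16), compared with limma 3.58.1 in R 4.3.3 (lmFit, eBayes, region as the only term, two-sided, Benjamini-Hochberg over all genes, or over all probe sets where so stated, threshold 0.05). The script was tested on simulated data. The members and gene lists were chosen with earlier results of these data known. The plan was to name all members and every called gene of the other complement genes. Of each marker list it took up to 3 called members by size, with its defining markers. Called members by size are given for the macrophage list alone, and the other marker lists mainly as counts. Other genes named, among them Mertk, Spic and the uncalled complement genes, were chosen after their values were seen. Alternatives were pseudocounts 1 and 64, a filter on dim genes, quantile normalisation, median centring, scaling to poly-A controls, the mean of a gene's probe sets, an intensity trend, the letter as a block, and leaving out each array. Same-letter arrays deviated from their region means with correlations over all genes of 0.05 (A), 0.04 (B) and 0.01 (C), and over genes above the median signal of 0.25, 0.12 and 0.08. As not every pair passed 0.1 and no label ties a letter to a mouse, the reported fit has no block, and the blocked values are given in the results. Both fractions were taken from the same shafts and 3 mice lie behind the 6 arrays, so the regions share mice. Which arrays come from 1 mouse is not stated, and the fit without a block leaves out this pairing.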

Additional observations from a re-analysis of the deposited data

How the results depend on the processing

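Over 16 alternatives, log2 changes ran from 1.30 to 2.56 for C1qa, 1.36 to 2.72 for C1qb, 1.10 to 2.36 for C1qc and 2.58 to 3.84 for Serping1, each highest when scaled to poly-A controls. With the replicate block, 0 of 7 member genes and 0 of 13 member probe sets were called (4 and 8 higher, 0 and 0 lower, at an unadjusted p under 0.05), with 143 genes called higher and 6 lower in all and 0 probe sets. Scaled to poly-A controls, 7 member genes and 24 other complement genes were called higher, with 12226 genes higher and 21 lower, a shift that is the same for every gene and that took Cfp from -0.37 to 0.63. Leaving out 1 array gave 3 to 4 member genes and 0 to 4 member probe sets called higher. Other complement genes called higher and lower were 3 and 1 with pseudocount 1, 7 and 3 with pseudocount 64, 6 and 4 above the median signal, 4 and 2 after quantile normalisation, 4 and 3 after centring, 8 and 5 with an intensity trend, 5 and 2 with the random block, 0 and 0 with the fixed block (11 and 4 at an unadjusted p under 0.05), and 2 to 5 and 0 to 1 without 1 array. The causes were not tested. Higher genes numbered 1441 and lower 731 as reported, 951 and 1786 after centring, 1670 and 1722 above the median signal, 1856 and 1105 with pseudocount 64, 2215 and 1693 with a trend, and 549 to 928 and 101 to 307 without 1 array. For probe sets these were 1444 and 582 as reported, 857 and 232 with pseudocount 1, 2382 and 1466 with pseudocount 64, 1179 and 1927 after centring, and 210 to 868 and 5 to 181 without 1 array.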
